A study of Mus musculus with 10 samples.

Results

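Of 12885 protein-coding genes measured, 554 (4.30%) had a promoter window that was methylated in both sorted fractions. A window reached 1 kb either side of the gene end at which more CpGs were listed, and it was measured when it held at least 5 CpGs with 10 or more reads in both libraries. It was counted as methylated when the pooled level, methylated reads over all reads, lay above 80% in TSPAN8-high and in TSPAN8-low. The windows were thus chosen by their methylation levels, which are given as a description only. In contrast, 11604 windows (90.1%) lay below 20% in both libraries.

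The assay was RRBS, reduced-representation bisulfite sequencing, which reads the CpGs near restriction sites, here those of BfaI, MseI and MspI. The cells were ID4-EGFP+ spermatogonia from testes of LT-11B6 pups, which carry the Id4-eGfp transgene on a C57BL/6 background, at postnatal day 6, sorted for the strongest (TSPAN8-high) and the weakest (TSPAN8-low) staining for the surface protein TSPAN8. Each fraction gave 1 library from 5 pooled sorts, so there was no error between replicates, and tests speak of these 2 libraries only. The 8 chromatin samples of the series were not analysed here. The table held 83658949 reads over 6745376 cytosines in TSPAN8-high and 83773700 reads in TSPAN8-low, and cytosines with 10 or more reads in both had 16 reads at the median. Windows of 8 of 9 spermatogonial marker genes were measured, and none was above 2.95% in TSPAN8-high or 3.14% in TSPAN8-low. Markers of other testis cells were measured in part. The 5 Sertoli cell windows reached at most 1.62% (TSPAN8-high) and 3.61% (TSPAN8-low), and the endothelial window was at 1.02% (TSPAN8-high) and 0.645% (TSPAN8-low). There were 2 Leydig cell windows at 6.76% and 20.7% in TSPAN8-high and 5.31% and 35.2% in TSPAN8-low, 3 myoid cell windows between 47.3% and 94.2% in TSPAN8-high and between 50% and 98.6% in TSPAN8-low, and the leukocyte marker window measured, that of Ptprc, at 89.3% (TSPAN8-high) and 96.6% (TSPAN8-low). In longer lists, the measured windows that were unmethylated were 3 of 4 for leukocytes, 2 of 5 for myoid cells, 8 of 9 for Sertoli cells and 4 of 4 for endothelial cells. The highest window of the longer Sertoli cell list was at 42.5% in TSPAN8-high. Among the markers, the window of Acta2 lay at the 3′ end of the gene. Those of Tagln, Sox9, Wt1, Amh and Clu had no matched RefSeq start. These are methylation levels and say nothing of how many such cells the sorts held.

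Most mammalian gene starts lie in CpG islands, short stretches rich in CpGs that stay free of methylation whether or not the gene is transcribed. Outside islands most CpGs are methylated, including those of gene bodies, of gene ends and of CpG-poor promoters, many of which belong to genes used in 1 tissue. Male germ cells erase methylation early and lay it down again before birth, so spermatogonia of a pup carry a largely methylated genome with unmethylated islands.

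The name promoter applied to a minority of the methylated windows. RefSeq starts and strands of the GRCm38.p6 assembly (mm10) matched 441 of the 554 genes. Among these, 274 windows (62.1%) lay at the 3′ end of the gene, 130 (29.5%) held an annotated start, and 37 (8.39%) lay at the upstream end of the gene's extent with no annotated start within 1 kb. Among matched windows below 20% in both libraries, 4.45% lay at the 3′ end and 90.6% held a start. Seen from the gene ends, 274 of 829 measured 3′-end windows (33.1%) were methylated in both libraries, against 130 of 8854 windows with a start (1.47%). Of the 274 windows at a 3′ end, 5 held the start of another gene. The number of methylated windows depended on the read minimum: it was 2158 of 16509 windows when cytosines with 5 reads were let in, and 22 of 5241 when 20 were required. The 3′ end held 54.6% of the matched methylated windows at 5 or more reads and 16 of the 20 matched ones with 20 reads.

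**Figure D1:**
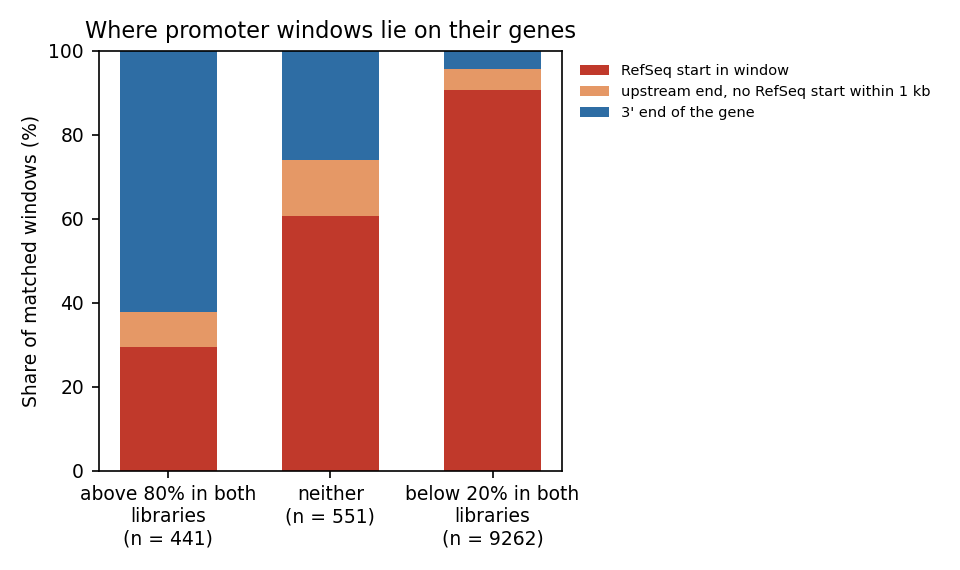
Place of the windows on their genes, as the share in percent of windows matched to RefSeq strands and starts, for windows above 80% in both libraries (n = 441), windows in neither class (n = 551) and windows below 20% in both libraries (n = 9262). The 3′ end took 62.1% of the methylated windows, 26.0% of those in neither class and 4.45% of the unmethylated ones.

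The stretches before the start are shown for 4 genes whose windows were methylated at the start, and for 2 genes with a methylated window elsewhere and an unmethylated RefSeq start. They were chosen after their values were seen. Each runs over the 250 bases before the RefSeq start, 5′ to 3′, with every CpG in capitals. The methylated starts are those of Cavin4, a caveolar coat protein of muscle (chr4:48663264-48663513, plus strand), of Myh2, a fast myosin heavy chain of skeletal muscle (chr11:67170777-67171026, plus strand), of Zfp57, which guards methylation at imprinted regions (chr17:37000913-37001162, plus strand), and of Ptprc, the leukocyte surface phosphatase CD45 (chr1:138175306-138175555, minus strand). The unmethylated ones are those of Tsg101, a subunit of the ESCRT-I sorting complex (chr7:46919970-46920219, minus strand), and of Brd3, a bromodomain protein that binds acetylated histones (chr2:27475399-27475648, minus strand).
Cavin4: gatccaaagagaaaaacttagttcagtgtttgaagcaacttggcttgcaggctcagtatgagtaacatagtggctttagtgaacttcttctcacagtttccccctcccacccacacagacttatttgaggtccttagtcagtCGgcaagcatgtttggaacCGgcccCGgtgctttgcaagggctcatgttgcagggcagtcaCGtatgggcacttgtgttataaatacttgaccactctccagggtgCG
Myh2: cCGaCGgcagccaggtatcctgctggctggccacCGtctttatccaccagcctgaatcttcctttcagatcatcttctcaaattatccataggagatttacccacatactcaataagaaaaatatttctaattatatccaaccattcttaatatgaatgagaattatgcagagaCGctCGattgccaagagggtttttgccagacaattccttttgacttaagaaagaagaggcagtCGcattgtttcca
Zfp57: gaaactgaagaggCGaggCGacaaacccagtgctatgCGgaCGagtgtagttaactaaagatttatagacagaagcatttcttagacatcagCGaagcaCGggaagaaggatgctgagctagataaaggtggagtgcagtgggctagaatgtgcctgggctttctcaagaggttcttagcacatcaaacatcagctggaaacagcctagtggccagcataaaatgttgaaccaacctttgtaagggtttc
Ptprc: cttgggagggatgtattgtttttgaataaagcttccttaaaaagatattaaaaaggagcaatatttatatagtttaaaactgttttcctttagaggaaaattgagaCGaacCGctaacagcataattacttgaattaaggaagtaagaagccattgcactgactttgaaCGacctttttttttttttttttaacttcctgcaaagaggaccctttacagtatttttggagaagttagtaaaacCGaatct
Tsg101: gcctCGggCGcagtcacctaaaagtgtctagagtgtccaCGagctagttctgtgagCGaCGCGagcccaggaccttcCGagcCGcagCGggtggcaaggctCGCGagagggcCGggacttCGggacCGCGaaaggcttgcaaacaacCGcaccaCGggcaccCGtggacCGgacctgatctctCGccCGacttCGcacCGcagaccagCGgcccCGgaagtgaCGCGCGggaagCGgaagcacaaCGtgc
Brd3: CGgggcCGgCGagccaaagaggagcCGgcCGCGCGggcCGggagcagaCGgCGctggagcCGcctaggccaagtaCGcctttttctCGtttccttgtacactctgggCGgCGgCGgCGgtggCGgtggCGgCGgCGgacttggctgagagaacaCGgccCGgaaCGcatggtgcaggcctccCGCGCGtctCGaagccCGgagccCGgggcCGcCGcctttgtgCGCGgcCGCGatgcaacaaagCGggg
The 4 methylated stretches hold 5, 6, 6 and 4 CpGs in this order, and those of Tsg101 and Brd3 hold 30 and 37. In the printed bases of Cavin4, 3 CpGs were listed at 10 or more reads, and 95 of 98 reads were methylated in TSPAN8-high and 81 of 82 in TSPAN8-low. Those of Zfp57 had 4 listed CpGs with 84 of 85 reads methylated in TSPAN8-high and 87 of 88 in TSPAN8-low. Myh2 had 84 of 94 and 97 of 107 methylated reads over 3 CpGs, and Ptprc 39 of 43 and 83 of 86 over 3 CpGs. In the stretch of Tsg101, 22 CpGs were listed, and 2 of 797 reads were methylated in TSPAN8-high and 13 of 792 in TSPAN8-low. For Brd3, 0 of 306 reads were methylated over 6 CpGs in TSPAN8-high, which allows a level of up to 0.980%, and 0 of 212 in TSPAN8-low, which allows up to 1.42%. The CpG-poor stretches were thus read at few CpGs each, and the CpG-rich ones at up to 22.

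The methylated windows were close to full methylation in both libraries. In TSPAN8-high the pooled level ran from 80.1% to 100% around a median of 95.5%, and in TSPAN8-low from 80.5% to 100% around 95.99%. Above 90% in both libraries were 476 of the 554 windows, and 5 windows had no unmethylated read in either library. Those were the 3′ ends of Cpn2, a subunit of plasma carboxypeptidase N, of Mettl9, a methyltransferase, of Tgfbi, an extracellular matrix protein, of Vgll4, a cofactor of TEAD factors, and of Gm50595. They held 5 CpGs each and rested on 56 to 138 reads in TSPAN8-high and 58 to 119 in TSPAN8-low. Single cytosines varied more than windows: of 4848 cytosines in the 554 windows, 4330 (89.3%) lay above 80% in both libraries, and 1928 (39.8%) were fully methylated in both. Below 20% in both were 7 cytosines, in 6 windows, among them those of Sst and Mroh2a. In 257 windows every cytosine lay above 80% in both.

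The windows were also poor in listed CpGs and held few reads in total. They held a median of 6 listed CpGs (interquartile range 5 to 7, at most 16), against a median of 16 over all 12885 windows, and 262 of them held exactly 5, the minimum. With at least 10 CpGs asked for, 24 of the 554 windows were left. The median window had 144 reads in TSPAN8-high and 145 reads in TSPAN8-low, where the median of all windows was 434 for TSPAN8-high and 422 for TSPAN8-low. The windows with the most CpGs belonged to Cfd, adipsin of the complement system (16 CpGs, 91.5% in TSPAN8-high and 93.2% in TSPAN8-low), to Atp5e, a subunit of ATP synthase (14 CpGs, TSPAN8-high 95.2%, TSPAN8-low 96.6%), and to Cit, citron kinase of cell division (13 CpGs, TSPAN8-high 94.2%, TSPAN8-low 97.8%), and all 3 lay at the 3′ end. Trpm8, the cold-sensing channel, had the window with the most CpGs among those at a start, with 12 CpGs, 85.3% of reads methylated in TSPAN8-high (exact interval 82.2 to 87.9) and 88.3% of reads in TSPAN8-low (85.8 to 90.5).

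Just inside the threshold lay Gm52481 on the Y chromosome (80.1% in TSPAN8-high and 83.1% in TSPAN8-low), Dio2, which activates thyroid hormone (TSPAN8-high 80.1%, TSPAN8-low 89.3%), and Sst, somatostatin (TSPAN8-high 80.2%, TSPAN8-low 83.2%). Just outside it lay Gast, gastrin (TSPAN8-high 93.2%, TSPAN8-low 79.7%), Ghrhr, the receptor of growth hormone-releasing hormone (TSPAN8-high 83.2%, TSPAN8-low 80%), and Arg1, the liver arginase of the urea cycle (TSPAN8-high 80%, TSPAN8-low 86.5%). With exact intervals of 73.5% to 85.7% in TSPAN8-high for Gm52481 and 72.3% to 86.6% for Sst, counting error alone reaches across the threshold at both.

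Inside the windows, the flat line at methylated starts and the dip at unmethylated ones were set by the level thresholds and are a description. In bins of 200 bp within 1 kb of the centre, the 130 windows with a start averaged 89.2% to 95.7% in TSPAN8-high and 91.2% to 97.2% in TSPAN8-low, with 34 to 52 windows per bin. The 3′-end windows averaged 94.5% to 96.3% in TSPAN8-high and 94.4% to 96.0% in TSPAN8-low. Windows below 20% with a start had a lowest bin with a mean of 0.918% (TSPAN8-high) and 0.870% (TSPAN8-low). Beyond 1 kb, where the rule used no CpG, bins around methylated starts averaged 61.5% to 96.1% in TSPAN8-high and 61.97% to 95.7% in TSPAN8-low, but with 8 to 26 windows per bin.

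**Figure D2:**
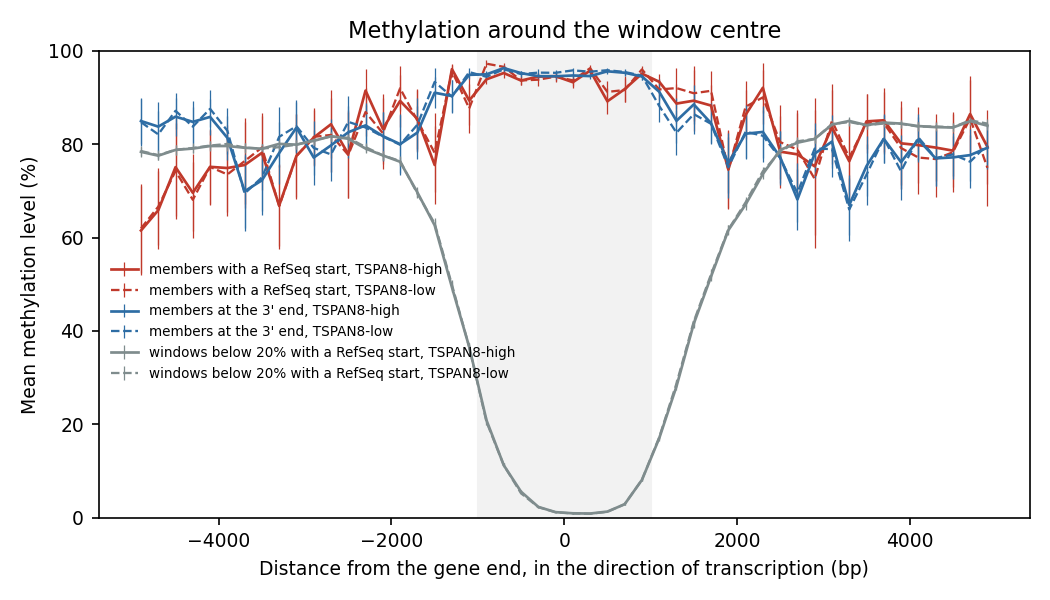
Mean methylation level in percent (lines, with standard errors over windows as bars) in bins of 200 bp by distance from the gene end in the direction of transcription, for methylated windows with a RefSeq start (n = 130), methylated windows at the 3′ end (n = 274) and windows below 20% with a RefSeq start (n = 8390). TSPAN8-high is solid and TSPAN8-low dashed, and the grey band marks the window itself, which was chosen by its level. The lines of both methylated classes stay above 89% inside the band, while the line of the unmethylated starts falls to 0.918% (TSPAN8-high) and 0.870% (TSPAN8-low).

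The other end of the gene was unmethylated in 41 of the 64 genes (64.1%) where it could be read, that is, with at least 5 CpGs and no overlap with the window. In 13 of the 64 the other end also lay above 80% in both libraries, and in 10 it lay between. Over all windows the other end was unmethylated in 632 of 1793 genes (35.2%). Of the 1793 genes read, 1107 had a start in the window, so shares are compared by place in what follows. The remaining methylated windows could not be answered: the other end had 1 to 4 CpGs in 339 genes, none in 127, and overlapped the window in 24. The share moved with both minimums: with at least 1 CpG the other end was unmethylated in 107 of 403 genes (26.6%), and at 5 or more reads per cytosine in 105 of 574 (18.3%).

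Most of the genes read, 43 of 64, had the window at the 3′ end, so that the other end was the upstream end of the gene. Of these 43, 30 (69.8%) had an unmethylated other end, against 169 of 193 genes (87.6%) with a 3′-end window that was not methylated in both libraries. It was 1 of 5 among genes with a methylated start, against 286 of 1107 (25.8%) over all windows with a start, and 10 of 16 among methylated windows with no matched start. At neither place was the share higher for methylated windows, and these differences were not tested. At Atp5e the other end was at 13.95% in TSPAN8-high, against 17.02% in TSPAN8-low, over 13 CpGs, and at Cit at 1.42% (TSPAN8-high) and 0% (TSPAN8-low) over 11. Fem1c, a substrate receptor of ubiquitin ligases, had its window at 97.4% (TSPAN8-high) and 97.5% (TSPAN8-low) and its other end at 1.70% (TSPAN8-high) and 0% (TSPAN8-low). Edn1, the vasoconstrictor endothelin-1, had 88.9% (TSPAN8-high) and 97.3% (TSPAN8-low) in the window and 0.830% (TSPAN8-high) and 1.79% (TSPAN8-low) at the other end. Uqcr10, a subunit of respiratory complex III, had 97.8% (TSPAN8-high) and 91.9% (TSPAN8-low) in the window and 5.17% (TSPAN8-high) and 6.71% (TSPAN8-low) at the other end. Acat2, a thiolase of lipid metabolism, had 93.0% (TSPAN8-high) and 93.9% (TSPAN8-low) in the window and 4.10% (TSPAN8-high) and 3.53% (TSPAN8-low) at the other end. The start-window gene with an unmethylated other end was Ankrd2, a stress-responsive muscle protein, at 87.2% (TSPAN8-high) and 91.9% (TSPAN8-low) in the window and 4.76% (TSPAN8-high) and 1.79% (TSPAN8-low) at its 3′ end.

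The annotated start outside the window could be read in more genes. RefSeq gave 125 of the 554 genes a start outside the window with at least 5 CpGs, and it was unmethylated in 105 (84.0%) and above 80% in 11 (8.80%). Where a gene had several such starts, only the one with the most listed CpGs was read, here and over all windows. Over all windows it was unmethylated in 704 of 853 (82.5%) and above 80% in 78 (9.14%), so the shares are near those of all genes read. Among 246 genes with a 3′-end window that was not methylated in both libraries, 222 (90.2%) had an unmethylated start. By place, the start was unmethylated in 84 genes (83.2% of those read) with the methylated window at the 3′ end and in 16 of 18 with it at the upstream end. With at least 1 CpG in place of 5, it was unmethylated in 121 of 222 3′-end genes (54.5%) and above 80% in 72 (32.4%). These starts held a median of 12 CpGs, and 81 of the 125 had more CpGs than the window that the rule had taken, and the rule had looked only at the outermost ends of each gene.

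Examples with an unmethylated start, picked after their values were seen, follow. Tsg101 had its 3′-end window at 97.2% (TSPAN8-high) and 97.7% (TSPAN8-low), and its start, over 32 CpGs, at 1.32% (TSPAN8-high) and 2.53% (TSPAN8-low). Brd3 had its upstream window at 99.1% (TSPAN8-high) and 98.0% (TSPAN8-low), and its start, over 44 CpGs, at 1.14% (TSPAN8-high) and 0.982% (TSPAN8-low). Fpgs, which adds glutamates to folate, had 94.8% (TSPAN8-high) and 95.2% (TSPAN8-low) upstream and 0.731% (TSPAN8-high) and 1.08% (TSPAN8-low) over 50 CpGs at its start. Enah, a regulator of actin filaments, had 94.5% (TSPAN8-high) and 97.1% (TSPAN8-low) upstream and 0.542% (TSPAN8-high) and 0.175% (TSPAN8-low) at its start, and Nfyc, a subunit of the CCAAT-binding factor NF-Y, 93.5% (TSPAN8-high) and 96.1% (TSPAN8-low) upstream and 0.452% (TSPAN8-high) and 0.996% (TSPAN8-low) at its start. The epithelial adhesion gene Epcam had 91.0% (TSPAN8-high) and 89.3% (TSPAN8-low) at its 3′ end and 2.08% (TSPAN8-high) and 0% (TSPAN8-low) at its start. The start was methylated as well in 11 genes, of which 3 are given as examples. Casq1, the calcium store protein of skeletal muscle, had 98.6% (TSPAN8-high) and 99.2% (TSPAN8-low) in the window and 95.7% (TSPAN8-high) and 94.8% (TSPAN8-low) at its start. Cd80, a T cell costimulator, had 96.9% (TSPAN8-high) and 97.4% (TSPAN8-low) in the window and 94.7% (TSPAN8-high) and 100% (TSPAN8-low) at its start, and Nr1i3, the liver receptor CAR, had 100% (TSPAN8-high) and 96.3% (TSPAN8-low) in the window and 92.6% (TSPAN8-high) and 92.1% (TSPAN8-low) at its start.

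**Figure D3:**
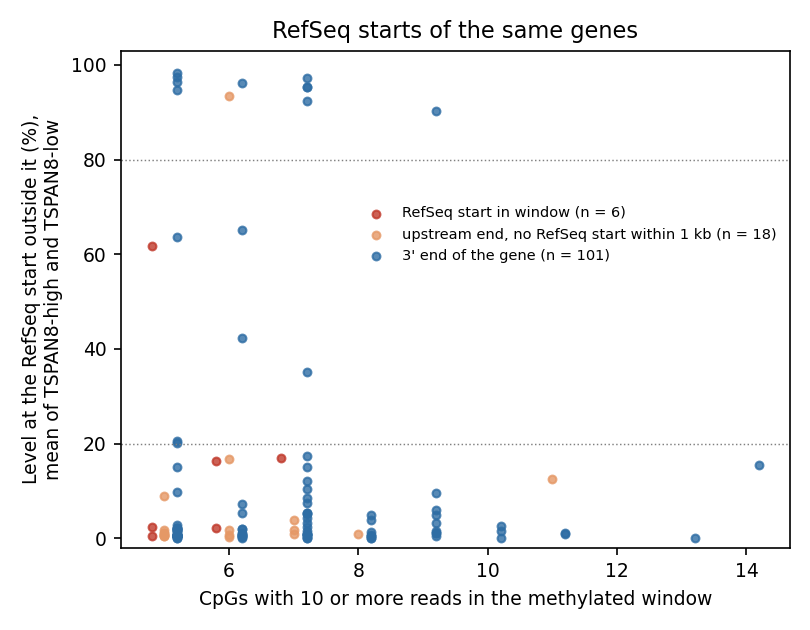
Methylation level in percent at the RefSeq start outside the window (mean of TSPAN8-high and TSPAN8-low) against the number of CpGs in the methylated window, for the 125 genes with at least 5 CpGs at that start. Of several such starts the one with the most listed CpGs is shown. Points are genes, coloured by where the methylated window lies, and dotted lines mark 20% and 80%. Most points sit below 20%, where 105 genes were unmethylated in both libraries, and 11 genes sit above 80%.

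At 5 genes with the window at a start, a further start was unmethylated: Dctd, Tmem144, Gcnt2, Otop2 and 1110017D15Rik. Gcnt2, which builds branched glycans of the I blood group, had 89.2% in TSPAN8-high and 90.7% in TSPAN8-low in the window, and 1.08% (TSPAN8-high) and 0% (TSPAN8-low) over 14 CpGs at the further start. The further start of Zfp57 was neither, at 60.3% (TSPAN8-high) and 63.05% (TSPAN8-low) over 9 CpGs, beside a window at 98.2% (TSPAN8-high) and 99.1% (TSPAN8-low).

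Promoters of the 130 genes with a methylated start were poor in CpGs in the reference sequence too, which the rule did not use. Over the 300 bases of the RefSeq promoter, which reaches 250 bases before and 50 after the start, they had a median of 4 CpGs (interquartile range 3 to 7), an observed over expected CpG ratio of 0.266 and a GC content of 48.3%. The 8390 promoters with windows below 20% had a median of 23 CpGs, a ratio of 0.797 and a GC content of 62.7%. A ratio above 0.6 with a GC content above 50%, as in CpG islands, was found in 2 of the 130, Gm52481 and Sst, and in 76.7% of the unmethylated ones. The letters TATAAA, on either strand, were found in 38 of the 130 (29.2%), in 6.16% of the unmethylated promoters and in 13.6% of all 32851 RefSeq promoters. They stand in the printed bases of Cavin4, Zfp57 and Ptprc. CCGG, the site of MspI, was found in 34.6% of the 130 and in 88.5% of the unmethylated promoters, so the methylated starts offered fewer MspI cuts. The sites of BfaI and MseI were not counted.

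Within those 300 bases, 63 of the 130 genes had a CpG with 10 or more reads. Over the 131 CpGs there, 94.8% of the reads of TSPAN8-high were methylated and 94.7% of those of TSPAN8-low, with 58 genes above 80% and none below 20% in both. For the other 67 genes, among them Nanog, Prm1 and Sst, the methylated CpGs lay farther from the start, and the state of the start itself was not read at this depth.

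**Figure D4:**
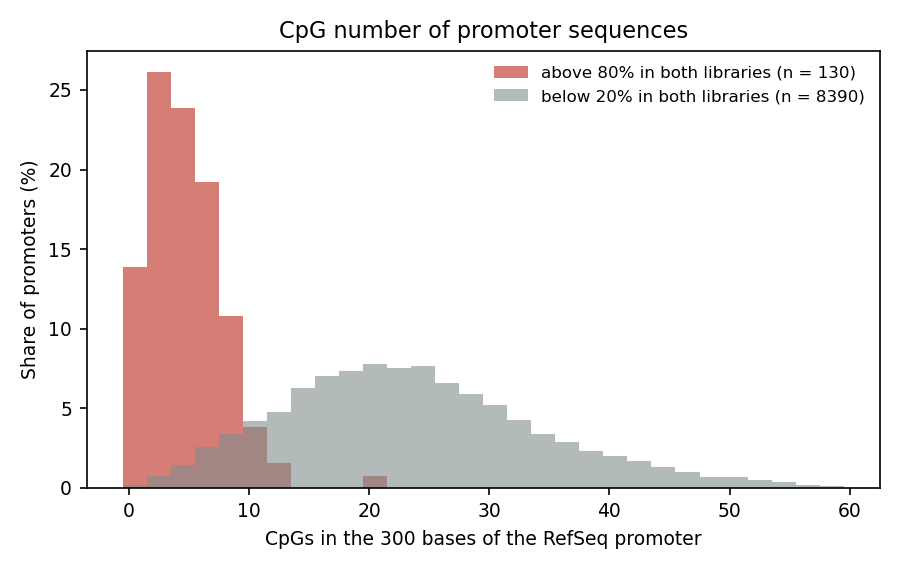
Number of CpGs in the 300 bases of the RefSeq promoter, as the share in percent of promoters, for genes with a methylated window at the start (n = 130) and for genes with a start window below 20% (n = 8390). The medians are 4 and 23 CpGs.

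Of the 167 genes methylated at a start or at the upstream end, 76 fell into 8 groups of known role, most of them tissues other than the testis. The role groups were drawn up from the gene names after the windows were known, so their counts are a description only. The immune group held 17 genes. Rag1 and Rag2, which cut antigen receptor genes in lymphocytes, had 90.4% and 98.9% in TSPAN8-high and 95.9% and 96.5% in TSPAN8-low. Il17a, the signature cytokine of Th17 cells, had 97.2% of reads methylated in TSPAN8-high (exact interval 93.6 to 99.1), against 95.3% in TSPAN8-low (90.1 to 98.3). Cd3d, a chain of the T cell receptor complex, had 92.9% (TSPAN8-high) and 91.9% (TSPAN8-low), Ptprc had 89.3% (TSPAN8-high) and 96.6% (TSPAN8-low), and Ccr4, a chemokine receptor of T cells, had 97.2% (TSPAN8-high) and 97.7% (TSPAN8-low) at its upstream end.

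The liver and plasma group held 12 genes, among them Afp, the fetal plasma protein alpha-fetoprotein (96.3% in TSPAN8-high and 94.7% in TSPAN8-low), C8a of the complement attack complex (TSPAN8-high 94.9%, TSPAN8-low 95.2%), Vtn, vitronectin (TSPAN8-high 90.8%, TSPAN8-low 82.1%), and Uox, urate oxidase (TSPAN8-high 95.8%, TSPAN8-low 96.1%). Of 10 muscle genes, Cavin4 had 97.9% (TSPAN8-high) and 96.6% (TSPAN8-low), Unc45b, a myosin chaperone, 97.6% (TSPAN8-high) and 98.1% (TSPAN8-low), Myh2 91.0% (TSPAN8-high) and 93.3% (TSPAN8-low), and Myh6, the alpha myosin heavy chain of the heart, 89.2% (TSPAN8-high) and 92.3% (TSPAN8-low) at its upstream end. The 13 genes of the senses included 5 olfactory receptors, the trace amine receptors Taar2 and Taar7e, Trpm8, and Mrgprd, a receptor of pain neurons (TSPAN8-high 90.6%, TSPAN8-low 94.8%). Digestive genes were Cpb1, a pancreatic carboxypeptidase (TSPAN8-high 93.1%, TSPAN8-low 97.1%), Cym, the milk-clotting protease chymosin (TSPAN8-high 98.7%, TSPAN8-low 97.1%), Pgc, a gastric pepsinogen (TSPAN8-high 96.2%, TSPAN8-low 97.6%), and Fabp2 of the gut (TSPAN8-high 95.9%, TSPAN8-low 96.0%). Peptide genes included Sst, near the threshold, and Cort, cortistatin, at 99.2% (TSPAN8-high) and 97.4% (TSPAN8-low). Connective tissue genes included Ctsk, the bone-resorbing protease of osteoclasts (TSPAN8-high 93.3%, TSPAN8-low 95.02%), and Col10a1, the collagen of hypertrophic cartilage (TSPAN8-high 94.4%, TSPAN8-low 96.3%).

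The role group of testis, germ cells and early embryo held 11 genes, all methylated by the way the group was drawn. Of 12 measured genes in a wider list of spermiogenesis genes, 1, Prm1, was methylated and 8 were unmethylated. Prm1, the protamine that packs sperm DNA, had 94.3% of reads methylated in TSPAN8-high (exact interval at 95%: 90.8 to 96.8), against 95.03% in TSPAN8-low (90.8 to 97.7), and its other end, over 4 CpGs, was at 95.1% (TSPAN8-high) and 96.4% (TSPAN8-low). Nanog, a pluripotency factor, had 94.2% (85.8 to 98.4) of reads methylated in TSPAN8-high, against 88.8% (80.8 to 94.3) in TSPAN8-low, and its 3′ end was at 91.7% (TSPAN8-high) and 80.1% (TSPAN8-low). Khdc3, a maternal factor of the oocyte, was at 97.2% (TSPAN8-high) and 97.5% (TSPAN8-low) upstream, while 6 CpGs in its body were at 6.78% (TSPAN8-high) and 7.14% (TSPAN8-low). Dnajb8, a chaperone of spermatids, had 98.7% (TSPAN8-high) and 97.4% (TSPAN8-low), and Eppin, a protease inhibitor on sperm, 93.0% (TSPAN8-high) and 92.5% (TSPAN8-low).

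Gene families named by symbol differed in how many of their measured windows were methylated, beside 4.30% over all windows. This share depends on CpG number: 262 of 812 windows with exactly 5 CpGs were methylated, and 24 of 9704 with at least 10. Families were not matched for CpG number, so their shares cannot be told apart from it. Among 39 families, 13 had at least 3 methylated windows, a number that was 34 with cytosines of at least 5 reads and 0 with at least 20. Of 1110 olfactory receptor genes 18 were measured and 6 were methylated, 5 of them with a start in the window. Olfr1494 was at 90.5% (TSPAN8-high) and 93.3% (TSPAN8-low), and Olfr1048 at 93.8% (TSPAN8-high) and 100% (TSPAN8-low). The start of Olfr1494 lay 947 bp from the gene end. The promoter bases of neither gene held a CpG with 10 or more reads, so these starts themselves were not read. Of 13 keratins, the intermediate filaments of epithelia, 6 were methylated, with Krt27 at 97.5% (TSPAN8-high) and 100% (TSPAN8-low) at its 3′ end, and Krt39 at 88.8% (TSPAN8-high) and 94.9% (TSPAN8-low) at its start. Krt19, a keratin of simple epithelia, had 96.0% (TSPAN8-high) and 97.8% (TSPAN8-low) in the window and 1.21% (TSPAN8-high) and 7.22% (TSPAN8-low) at its other end. Interleukins and their receptors had 5 of 33 methylated, surface genes named CD 6 of 34, chemokines and their receptors 3 of 14, and Klr, Fc and lectin-like receptors 3 of 12. Most of these windows were not at a matched start: of the windows with a start, 1 of 18, 1 of 15, 1 of 9 and 0 of 3 were methylated in these families, beside 1.47% over all start windows.

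Large families with mostly unmethylated windows contributed by number. Solute carriers had 14 of 262 methylated (5.34%), 5 of them with a start in the window. Among these were the zinc transporter Slc39a2 (TSPAN8-high 97.5%, TSPAN8-low 95.9%) and the GABA transporter Slc6a13 (TSPAN8-high 96.5%, TSPAN8-low 100%). The start of Slc39a2 lay 528 bp from the gene end, and its promoter bases held no CpG with 10 or more reads. Zinc finger genes had 9 of 298 (3.02%), of which Zfp57 was at a start, while Zfp457 and Zfp566 were methylated at the 3′ end and unmethylated at the start. Zfp457 had 13.04% in TSPAN8-high, against 11.02% in TSPAN8-low, at its start, and Zfp566 had 5.38% (TSPAN8-high) and 4.63% (TSPAN8-low). Potassium channel genes had 5 of 68, Tmem genes 6 of 173, Fam and Ccdc genes 9 of 210, of which 7 lay at the 3′ end, and genes with placeholder symbols 40 of 427. None of 41 protocadherins and 52 histone genes was methylated above 80% in both libraries. The same held for the 10 measured genes that the symbol pattern of the TNF family matched. That pattern left out Tnfsf14, a TNF family gene of the immune group above. It was methylated at its start, at 96.4% (TSPAN8-high) and 96.8% (TSPAN8-low).

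Lists of genes by tissue also differed, and they too were not matched for CpG number. All 7 measured genes on a hand-written list of pancreas and gut genes were methylated, among them Ins2, insulin (TSPAN8-high 95.8%, TSPAN8-low 93.8%), Clps, colipase (TSPAN8-high 97.9%, TSPAN8-low 97.7%), and Sis, sucrase-isomaltase (TSPAN8-high 95.3%, TSPAN8-low 87.3%). Sst of this list lay just above the threshold (TSPAN8-high 80.2%). The gut hormone gene Gast is not on the list and lay just below the threshold (TSPAN8-low 79.7%). Of the 7, 4 were at a start (Cpb1, Fabp2, Pgc and Sst), while Ins2, Clps and Sis were not at a matched start. Of liver and plasma genes 5 of 9 were methylated, 4 of them at the 3′ end and C8a at a start. Of muscle genes 3 of 10 were methylated, of which Myh2 was at a start, and of eye genes 3 of 9, none at a start. None of 20 stem cell and self-renewal genes, 10 genes of differentiating spermatogonia, 17 germline genes that somatic cells silence by methylation and 9 Sertoli cell genes was among them. Meiosis genes had 2 of 20, both not at a matched start: Spo11, which makes the meiotic breaks (TSPAN8-high 97.1%, TSPAN8-low 96.0%), and Syce1 of the synaptonemal complex, at its 3′ end (TSPAN8-high 96.3%, TSPAN8-low 95.1%). Of 8 oocyte and egg coat genes 6 were unmethylated and 1 was methylated, Zp1 (TSPAN8-high 93.9%, TSPAN8-low 96.6%). Of 5 peritubular myoid genes 2 were unmethylated and 1 was methylated, the smooth muscle actin Acta2, at its 3′ end (TSPAN8-high 94.2%, TSPAN8-low 98.6%). Of 4 macrophage and leukocyte genes 3 were unmethylated and Ptprc was methylated, the lowest being at 1.40% in TSPAN8-high.

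Inside the genes, CpGs more than 1 kb from both ends were methylated at a median of 89.6% (TSPAN8-high) and 90.3% (TSPAN8-low) over 404 genes with a methylated window, against 92.4% (TSPAN8-high) and 92.5% (TSPAN8-low) over 10540 genes of all windows. Of 76 bodies measured beside a methylated start, 52 (68.4%) lay above 80% in both libraries, against 77.4% over all windows with a start. Of the others, 4 are given. Over 152 CpGs, the body of Unc45b was at 17.5% (TSPAN8-high) and 16.5% (TSPAN8-low), that of Afp, over 19, at 36.4% (TSPAN8-high) and 35.9% (TSPAN8-low), that of Rag1, over 16, at 43.0% (TSPAN8-high) and 39.4% (TSPAN8-low), and that of Pcolce, an enhancer of procollagen processing, over 9, at 4.24% (TSPAN8-high) and 2.39% (TSPAN8-low). Unmethylated stretches of 500 bp were sought over the whole gene, leaving out only 1 kb around the window's own end. A stretch can thus lie at the other end or at an annotated start, and need not be in the body. Such a stretch was found in 183 of the 554 genes (33.0%), against 25.7% over all windows, but the order turned round at both main places. It was found in 108 of 274 genes with the methylated window at the 3′ end (39.4%), against 45.7% over all 3′-end windows. With the methylated window at a start it was found in 16 of 130 (12.3%), against 20.1% over all windows with a start. With the methylated window at the upstream end it was found in 25 of 37, for which no share over all such windows was taken.

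No chromosome held most of the methylated windows. On autosomes the share ran from 2.54% on chromosome 8 to 6.21% on chromosome 19. None of 148 measured windows on the X chromosome was methylated in both libraries, which speaks of the measured windows only. On the Y chromosome it was 1 of 2. Read depth and CpG number were not matched between chromosomes, and the number of methylated windows followed the read minimum, so these shares are a description. Windows of 6 genes overlapped that of another, so these are not separate measurements.

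The rule asks for a level above 80% in both libraries, so differences between libraries at the methylated windows were limited by selection. TSPAN8-high minus TSPAN8-low had a median of -0.28 percentage points and an SD of 3.41 across the 554 windows, and the level was lower in TSPAN8-high in 296, higher in 250 and equal in 8. Across all 12885 windows the SD was 2.65. The calls below use the same reads as the rule and are a description. Windows were tested with Fisher's exact test (two-sided, on reads) and adjusted over all 12885 by the Benjamini-Hochberg method. Of the 554, 2 (0.361%) passed an adjusted p of 0.05 with a difference of at least 10 percentage points, beside 0.373% of all windows, and both were lower in TSPAN8-high, the direction of 0.202% of all windows. At any size 4 of the 554 passed (0.722%), beside 3.1% of all windows, and all 4 were lower in TSPAN8-high, as were 1.44% of all windows. These shares are not at equal depth: the median window had 144 reads in TSPAN8-high among the 554 and 434 among all.

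Taar2, a trace amine receptor of the olfactory epithelium, had 96 of 111 reads methylated in TSPAN8-high (86.5%, 95% exact interval 78.7 to 92.2) and 99 of 100 in TSPAN8-low (99.0%, 94.6 to 100), which is -12.51 percentage points (Fisher's exact test, adjusted p = 0.0254). Lypla2, which removes palmitate from proteins, had 96 of 116 reads methylated in TSPAN8-high (82.8%, 74.6 to 89.1), against 126 of 132 in TSPAN8-low (95.5%, 90.4 to 98.3), at its 3′ end, which is -12.70 percentage points (Fisher's exact test, adjusted p = 0.0482). At 5 or more reads Lypla2 lost the call, with a difference of -9.29 (adjusted p = 0.0523, Fisher's exact test). The rule then took the other end of Taar2, at 12.4% (TSPAN8-high) and 18.5% (TSPAN8-low), so this setting does not test the window called, which with these reads was at 85.3% (TSPAN8-high) and 99.2% (TSPAN8-low). With 1 CpG kept per 100 bp Taar2 lost it (-14.30, adjusted p = 0.358, Fisher's exact test). The other genes that passed were Odam, a protein of the enamel organ, with 91.4% in TSPAN8-high, against 100% in TSPAN8-low (adjusted p = 0.0349, Fisher's exact test), and Ampd1, AMP deaminase of muscle, with 90.5% in TSPAN8-high, against 100% in TSPAN8-low (adjusted p = 0.0425, Fisher's exact test). Reads over several CpGs entered once per CpG, and the p values are therefore too low.

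**Figure D5:**
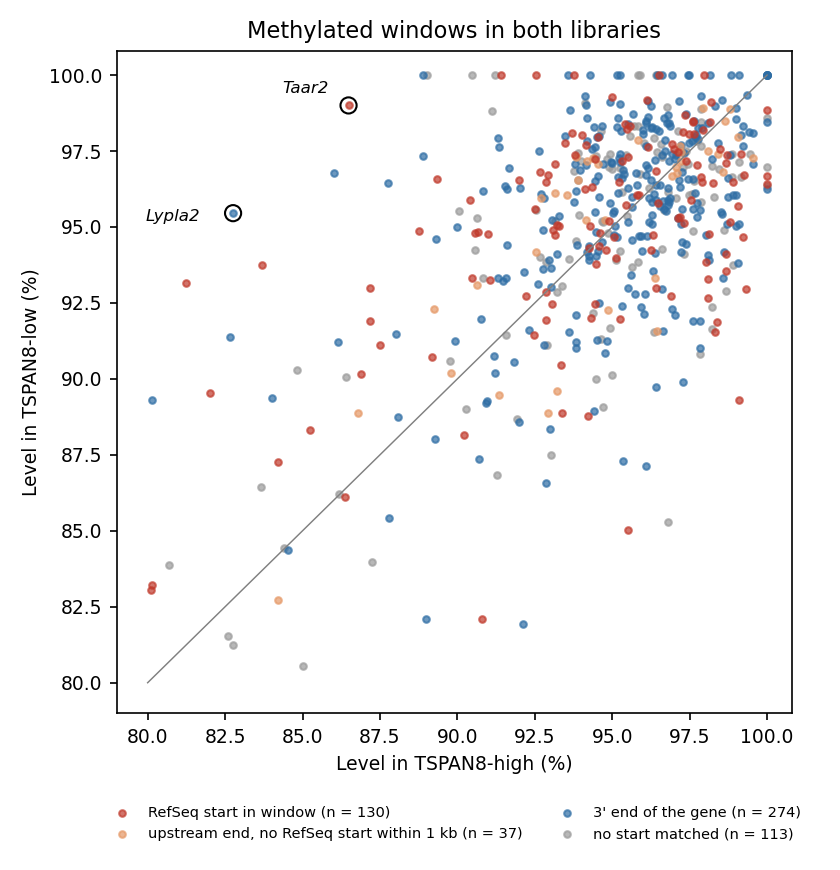
Pooled methylation level in percent of the 554 methylated windows in TSPAN8-high (x axis) and TSPAN8-low (y axis), coloured by the place of the window on its gene. The line marks equal levels, and circles mark Taar2 (86.5% in TSPAN8-high against 99.0% in TSPAN8-low) and Lypla2 (82.8% in TSPAN8-high against 95.5% in TSPAN8-low).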

How the data were processed

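Reduced-representation bisulfite libraries of TSPAN8-high and TSPAN8-low were analysed, 1 each. The authors deposited 1 table with a line per CpG cytosine. The level deposited there is a fraction with 2 decimals, and the deposited coverage is a count of reads, at least 5 in each library. The deposited difference (unit other) and the deposited p-value were not used. The submitters' processing notes name Bowtie, SICER, mm9 and mm10, without an assay. Positions were matched to mm10.

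Methylated reads were level times reads, rounded to whole reads. With the product unrounded, 555 windows passed the rule, Arg1 (TSPAN8-high 80.1%, TSPAN8-low 86.4%) being added. Cytosines needed 10 reads in both libraries, and strands were merged into CpGs. At 94 genes with equal CpG numbers at both ends the end at the lower coordinate was taken. Gene extents, starts and promoter sequences came from RefSeq. Genes were matched by gene ID. Unmethylated means below 20% in both libraries. Intervals are exact Clopper-Pearson intervals at 95%, a level of 0 allows 3 reads over the reads counted, and both cover counting error only, since reads carry no molecular identifiers. The Fisher's exact test was checked on simulated data. Python 3.11.15, numpy 2.4.6, pandas 2.3.3, scipy 1.17.1 and matplotlib 3.10.9 were used.

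The windows, families, lists and named genes were chosen with earlier results of these data known. Named were the 10 windows with the most CpGs, up to 12 with an unmethylated other end, up to 3 per family with at least 3 methylated windows by reads, the 3 on either side of the threshold, those called between the libraries, and up to 4 per tissue list. Not all of them are printed. Other named genes, the role groups and the printed sequences were chosen after their values were seen.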

Additional observations from a re-analysis of the deposited data

How the results depend on the processing

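The number of methylated windows was 554 and followed the minimums on reads and CpGs. It was 2158 at 5 or more reads, 22 at 20 or more, 185 with 500 bp either side, 1527 with 2 kb, 1430 with 1 CpG kept per 100 bp, 24 with at least 10 CpGs, 177 at the upstream end by strand and 193 around RefSeq starts, the last chosen after seeing the data. Of the 193, 131 were genes of the 554, and of the 2158, 448. The level threshold moved it less, to 594 above 70% and 476 above 90%, the unweighted mean to 558 and the less methylated end to 503.

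Genes with an unmethylated other end, 41 of 64, numbered 105 of 574 at 5 or more reads, 2 of 2 at 20 or more, 13 of 15 with 500 bp, 89 of 353 with 2 kb, 8 of 10 with at least 10 CpGs in the window, 6 of 16 at the upstream end by strand and 0 of 13 at the less methylated end, where the choice of end fixes the answer. With at least 3, 10 or 1 CpGs at the other end they numbered 76 of 200, 2 of 2 and 107 of 403, the last chosen after seeing the data. Families with at least 3 methylated windows, 13, numbered 34 and 0 at 5 and 20 reads, 4 and 30 with 500 bp and 2 kb, 24 with 1 CpG kept per 100 bp, 0 with at least 10 CpGs and 6 at the upstream end. Windows called between libraries, 2, numbered 10 at 5 or more reads, 10 with 2 kb, 4 with the unweighted mean, 4 with no minimum difference, and 0 at 20 or more reads, with 500 bp and with 1 CpG kept per 100 bp. Apart from the different windows these settings measure, the cause was not tested.

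Of 507 levels of 87 named genes recomputed under these settings, 404 stayed within the exact interval of the main value. Among methylated windows 73 of 492 such levels were at or below 80%, 18 of them at 5 or more reads, among them Cit (1.61%), Fem1c (1.27%), Edn1 (1.17%), Krt19 (6.78%) and Sst (47.7%) in TSPAN8-high. Of the 554 windows 106 were no longer above 80% in both libraries at 5 or more reads. For 94 of the 106 the rule then took the other end of the gene, and at 91 of these the end named in the report was still above 80% in both, a comparison chosen after seeing the data. No paired analysis was possible because each fraction gave 1 library. Depth limits which windows were read: starts with few CpGs had few cytosines at 10 or more reads. The difference between libraries has no replicate check.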
